A study of Mus musculus with 2 samples.

Results

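Serpins are protease inhibitors that act once: the protease cuts an exposed loop of the serpin, the loop folds into the body of the protein, and both are locked together. Clade A serpins are mostly secreted proteins related to antitrypsin and antichymotrypsin, although mouse Serpina3g lacks a secretion signal and works inside the cell. Clade B serpins stay in the cytosol, where they protect cells from proteases that leak out of granules and lysosomes, and the clade G member Serping1 encodes the secreted C1 inhibitor of complement. Described here are 8 serpin genes in mouse macrophages, Serpina3f and Serpina3g of clade A, Serpinb1a, Serpinb6a, Serpinb6b, Serpinb8 and Serpinb9 of clade B, and Serping1 of clade G. They stand among 61 protein-coding serpin genes and 54446 genes in all. The set was chosen from the same comparison that is described below, because Serpina3g headed the protein-coding genes that were higher with IL-36 gamma. The ratios of the set are therefore given as descriptions, and none of them is evidence that serpins respond to the cytokine.

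The cells were C57BL/6 macrophages grown out of bone marrow, and their RNA was sequenced after exposure to IL-36 gamma, an interleukin-1 family cytokine, or with no treatment. There was 1 IL-36 gamma library and 1 control library. Neither the labels nor the other sources used here state a dose, a duration, the number of mice or their age. The IL-36 gamma library held 17267900 counts in genes and the control library 17426367. The macrophage genes Adgre1, Csf1r and Cd68, which encode F4/80, the receptor for colony stimulating factor and macrosialin, stood at 3170, 1228 and 1157 CPM (counts scaled to the size of the library) with IL-36 gamma, against 2782, 1517 and 1168 CPM in the control.

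With a single library per group no replicate check is possible, and p-values are left out. Each ratio below sets scaled counts with IL-36 gamma over those of the control. The range in parentheses after it is an exact 95% Clopper-Pearson interval. Intervals cover counting error only, not the spread between cultures. A gene was measured where its mean count over both libraries was at least 10, and it was called past 2-fold where its whole interval lay above 2 or below 0.5. Levels of different genes are compared as TPM, in which counts are divided by exon length before scaling. In RNA from a whole culture, more transcript per cell and more cells that carry the transcript cannot be told apart.

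Serpina3g was the 1 gene of the set past 2-fold, Serpinb1a was about 2-fold higher on few counts, Serpinb8 was slightly lower, and the abundant Serpinb6a and Serpinb9 stood close to a ratio of 1. Of the 8 genes, 7 were measured and Serpina3f was too low. Past 2-fold upward was 1 of the 7, against 0.0765% of 14379 measured genes, and past 2-fold downward was none of the 7, against 0.0904%. An interval wholly above 1 was found for 2 of the 7, against 20.2% of measured genes, and wholly below 1 for 1 of the 7, against 16.5%. These counts come from the contrast that chose the set, and nothing is read from them. The median log2 ratio was 0.03 over the 7 genes, or -0.02 with scaling by total counts, and 0.01 over all measured genes, or -0.05. The balance of calls over all genes turned on the scaling, with 45.8% of the calls past 2-fold upward here and 33.3% with scaling by total counts. Of the intervals off 1, 55.0% lay above it here and 39.2% with scaling by total counts.

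**Figure D1:**
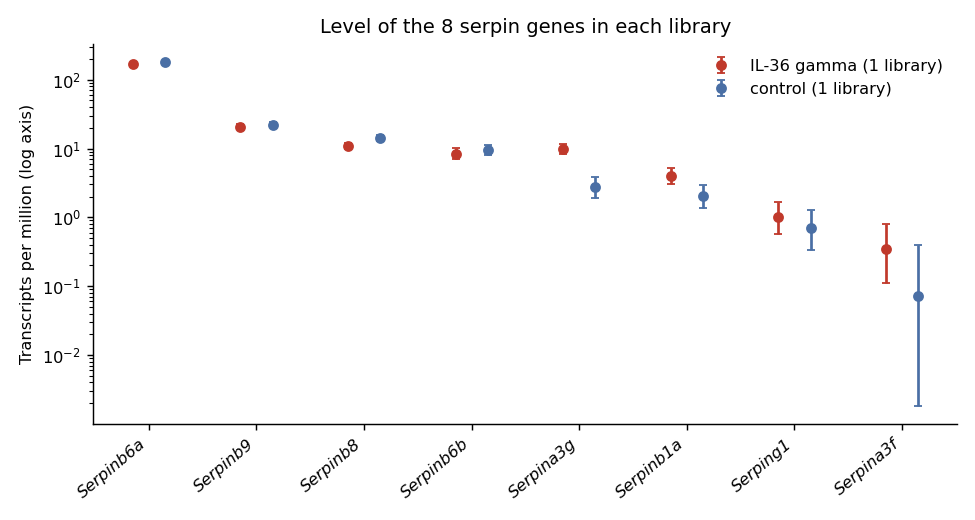
Level of each of the 8 serpin genes in the IL-36 gamma library (red, left of each pair) and the control library (blue, right), in TPM on a log axis, with exact 95% Poisson counting intervals. Serpinb6a is the most abundant in both libraries, at 171 TPM with IL-36 gamma and 181 TPM in the control, and the intervals of the pair are apart for Serpina3g, Serpinb1a and Serpinb8 among the less abundant genes.

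By length, Serpinb6a was by far the most abundant of the 8 genes in both libraries, and the order of the others differed between the libraries in the place of Serpina3g. In the IL-36 gamma library Serpinb6a stood at 171 TPM, Serpinb9 at 20.8, Serpinb8 at 10.9, Serpina3g at 9.87, Serpinb6b at 8.42, Serpinb1a at 3.96, Serping1 at 1.02 and Serpina3f at 0.344 TPM. In the control library the order was Serpinb6a at 181 TPM, Serpinb9 at 22.2, Serpinb8 at 14.1, Serpinb6b at 9.52, Serpina3g at 2.77, Serpinb1a at 2.04, Serping1 at 0.697 and Serpina3f at 0.0707 TPM. The counting intervals of Serpinb8, Serpina3g and Serpinb6b overlapped from neighbour to neighbour with IL-36 gamma, so the order of these 3 is not fixed by the counts. In the control the same held for Serpina3g and Serpinb1a, whereas Serpinb6b and Serpina3g were apart. The intervals of Serping1 and Serpina3f overlapped in both libraries. Serpinb6a took 71.5% (70.5 to 72.5) of all counts in the 61 serpin genes with IL-36 gamma and 72.8% (71.9 to 73.8) in the control, with exact binomial intervals. Serpina3g took 1.60% (1.34 to 1.90) with IL-36 gamma and 0.434% (0.304 to 0.601) in the control. By TPM, Serpinb6a made up 58.6% of the family with IL-36 gamma and 61.9% in the control, and Serpina3g 3.38% with IL-36 gamma and 0.948% in the control. Of the measured genes, 94.5% lay below Serpinb6a in TPM in the IL-36 gamma library and 94.9% in the control library, whereas 43.9% and 17.6% lay below Serpina3g.

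Serpina3g encodes Spi2A, an inhibitor of lysosomal cysteine cathepsins that is known in mouse as a target of NF-kB and of interferon gamma. The gene (ENSMUSG00000041481, chromosome 12, 104236245 to 104241939, plus strand, mm10) had 132 counts in the IL-36 gamma library, against 36 in the control library. The IL-36 gamma library was the higher one, and the counting intervals, 110.4 to 156.5 counts with IL-36 gamma and 25.2 to 49.8 in the control, were apart. The ratio was 3.85 (2.64 to 5.73). By the bound of the interval nearest 1 it ranked first among protein-coding genes whose higher count was at least 50 and second among all measured genes. The protein-coding genes with the closest log2 ratio over the 2 libraries, among those with at least 50 counts, were Fam174b (ratio 3.09), the neuronal adhesion gene Nrxn2 (2.83) and the myeloid gene Plac8 (2.83). Their log2 ratios with a prior count of 2, rather than those of the ratios just given, differed from that of Serpina3g by 0.37, 0.41 and 0.44. With 1 library a group this likeness rests on a single ratio per gene.

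Serpina3f lies upstream of Serpina3g on chromosome 12 (ENSMUSG00000066363, 104214544 to 104221129, plus strand) and belongs to the same group of mouse genes related to human antichymotrypsin. It had 5 counts in the IL-36 gamma library and 1 in the control library. The ratio was 5.25, with an interval from 0.587 to 248.2, so at this depth no difference between the libraries could be shown. The main transcripts of both genes are 88.6% identical over 1757 aligned columns, by local alignment of the GENCODE M21 transcripts with the longest coding part.

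Upstream of their starts both genes also carry related sequence, which is shown because this is the DNA next to the measured serpin gene with the highest ratio and to its close copy. The stretches are the 250 bases before the RefSeq start of each gene, on build GRCm38.p6, plus strand, written 5′ to 3′. Capitals mark matches to the STAT site TTCNNNGAA (GAS) and to the NF-kB consensus.
Serpina3g, chr12:104235897-104236146: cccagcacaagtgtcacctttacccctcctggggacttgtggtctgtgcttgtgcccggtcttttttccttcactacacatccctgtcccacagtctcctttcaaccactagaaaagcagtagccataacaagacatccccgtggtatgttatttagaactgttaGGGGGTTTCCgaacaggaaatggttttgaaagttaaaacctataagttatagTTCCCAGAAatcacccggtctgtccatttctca
Serpina3f, chr12:104214294-104214543: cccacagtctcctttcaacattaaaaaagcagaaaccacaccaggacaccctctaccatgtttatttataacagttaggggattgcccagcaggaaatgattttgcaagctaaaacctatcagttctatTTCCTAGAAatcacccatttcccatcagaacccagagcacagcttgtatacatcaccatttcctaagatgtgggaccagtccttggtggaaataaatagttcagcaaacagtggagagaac
Counted from the RefSeq start, the GAS match begins at -33 in Serpina3g and at -121 in Serpina3f, and the NF-kB match at -85 in Serpina3g. The Serpina3g window ends at 104236146, well before the GENCODE gene start of 104236245. The Serpina3f window ends at 104214543, next to its GENCODE gene start of 104214544. The offsets of the 2 genes are thus counted from unlike starts and are not to be compared. The other listed start of Serpina3f lies further downstream, and its window holds the same GAS match. No NF-kB match was found in either Serpina3f window. A local alignment paired bases -163 to -18 of Serpina3g with -250 to -106 of Serpina3f, at 81.0% identity over 147 columns. The GAS letters occurred in 7.02% of 32851 RefSeq promoter windows of the same length and the NF-kB consensus in 3.9%, searched on both strands.

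The RefSeq table held windows for 6 of the 8 genes. Besides the pair just shown, the far upstream start of Serpinb6a carried a GAS match at -77. The interferon response core, GAAANN followed by GAAA, found in 2.98% of windows, was present in that Serpinb6a window at -84, where it overlaps the GAS match, and in the Serpinb9 window at -46. The AP-1 letters TGANTCA, found in 6.75% of windows, were present before Serpinb8 at -23. No match to the 4 motifs was found before Serpinb6b or before the other listed start of Serpinb6a. These matches describe the letters only, and binding was not measured.

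Because clade A genes are near copies of each other, their counts were set beside the sequence they share. Of all 50-base windows of Serpina3g transcripts, 15.5% also occur in transcripts of other genes, chiefly the pseudogene Serpina3h, Serpina3i and Serpina3f, and of 100-base windows 3.49% do. For Serpina3f the shares were 10.6% and 3.40%. The read length is not stated. Reads aligned to more than 1 place, 6.92% with IL-36 gamma and 6.65% in the control, were kept apart from the gene counts. The copies that share most with Serpina3g held few counts. Serpina3h had 0 counts with IL-36 gamma and 1 in the control, and Serpina3i had 0 in both.

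Of the other clade A genes on chromosome 12, 5 were measured. Of these, 2, Serpina1c and Serpina3k, had an interval above 1, beside 20.2% of all measured genes. One of these 2 calls was lost under each of the other scalings of the libraries and after a trend on exon length was removed. Serpina1a, Serpina1b and Serpina1c encode forms of antitrypsin, a secreted inhibitor of neutrophil elastase made mainly by liver. They had 52, 83 and 82 counts with IL-36 gamma, against 36, 63 and 55 in the control. Serpina1c had a ratio of 1.56 (1.10 to 2.24), Serpina1a 1.52 (0.972 to 2.39) and Serpina1b 1.38 (0.985 to 1.95). Serpina3k had 81 counts with IL-36 gamma and 60 in the control, a ratio of 1.42, with an interval that reached 2.01 and began just above 1. Summed over the 22 genes of this chromosome apart from Serpina3g, the counts were 350 with IL-36 gamma and 246 in the control, a ratio of 1.49 (1.27 to 1.77), a grouping made after the values were seen. These genes share much sequence, since 57.6%, 29.5% and 79.3% of the 50-base windows of Serpina1a, Serpina1b and Serpina1c occur in other genes, so their single values are uncertain. Serpina1c also has 429 exonic bases in common with the opposite-strand gene B430119L08Rik, which had 58 counts with IL-36 gamma and 34 in the control.

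**Figure D2:**
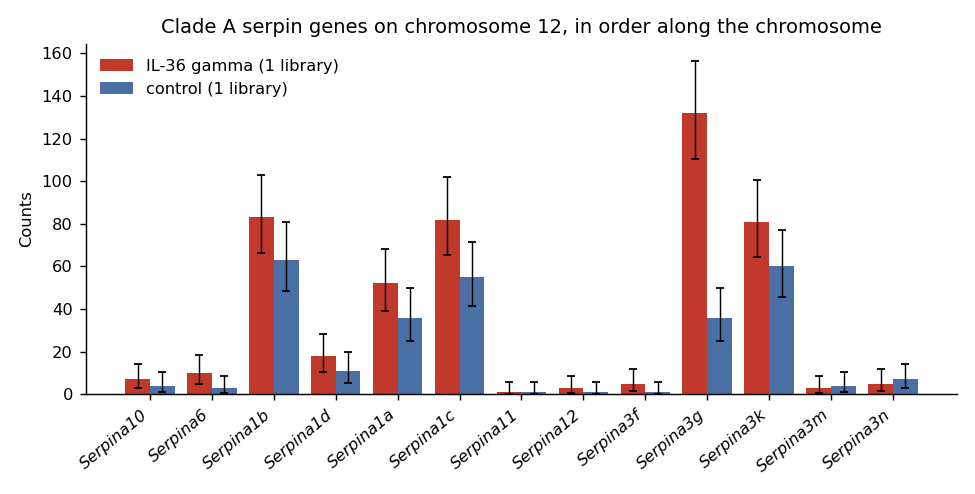
Counts of the 13 clade A genes on chromosome 12 with at least 1 count, in order of their start along the chromosome, in the IL-36 gamma library (red, left bars) and the control library (blue, right bars), with exact 95% Poisson counting intervals. Serpina3g stands at 132 and 36 counts, and the next pair by size are Serpina1b and Serpina1c, at 83 and 82 counts with IL-36 gamma.

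Serpinb1a, which encodes an inhibitor of neutrophil elastase, proteinase 3 and cathepsin G, was the other gene of the set with an interval above 1. The gene (ENSMUSG00000044734, chromosome 13, 32842092 to 32851185, minus strand) had 58 counts in the IL-36 gamma library, against 29 in the control library. The libraries were apart beyond counting error, at 44.0 to 75.0 counts with IL-36 gamma and 19.4 to 41.6 in the control. The ratio was 2.10 (1.32 to 3.40). Its neighbouring copies Serpinb1b and Serpinb1c, 89.1% and 87.6% identical to it over the aligned transcript, had 51 and 12 counts with IL-36 gamma and 39 and 10 in the control, with ratios of 1.37 (0.887 to 2.14) and 1.26 (0.499 to 3.25). Only 2.81% of its 50-base windows occur in other genes, and none of its 100-base windows.

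Neutrophil markers, and the genes of proteases that Serpinb1a inhibits, stood higher in the same library, on few counts for the proteases. Of 13 neutrophil markers, 12 were measured. Of these, 8 had an interval above 1 and 0 below it, beside 20.2% and 16.5% of all measured genes. The summed level of the 13 markers was 318.6 CPM with IL-36 gamma and 196.0 CPM in the control, and no marker was at 0 in either library. In both libraries the sum rested mostly on S100a8, S100a9, Lcn2, Ngp and Ltf. Intervals of Mpo, Retnlg, Cxcr2 and Cebpe included 1. Ly6g, the marker not measured, had 9 counts with IL-36 gamma and 8 in the control. Among the granule proteases, Elane (neutrophil elastase) had 22 counts with IL-36 gamma and 3 in the control, a ratio of 7.70 (2.31 to 40.2). Prtn3 (proteinase 3) had 56 counts with IL-36 gamma and 28 in the control, a ratio of 2.10 (1.31 to 3.43). Elane and Prtn3 stand in the neutrophil list as well, and were the only 2 measured of the 8 granule proteases. Without genes overlapped on the opposite strand 1 granule protease had an interval above 1, and with a mean count of at least 50 there were 0. Ctsg (cathepsin G) had 9 counts with IL-36 gamma and 0 in the control, below the minimum for measurement, and the lymphocyte granzymes Gzma, Gzmb and Gzmk had at most 1 count in a library. Serpinb1a is abundant in neutrophils and their precursors, and the part of such cells in its ratio was not tested. Of 8 monocyte markers 5 were above 1 and 1 below, with a median log2 ratio of 0.46, and Plac8 was the highest at a ratio of 2.83. Their summed level was 313.8 CPM with IL-36 gamma and 337.1 CPM in the control. The lower sum rested on the gene below 1, F13a1, which had 2094 counts with IL-36 gamma and 3782 in the control.

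Serpinb6a, an inhibitor of cathepsin G, carried most of the serpin transcripts of these macrophages and had a ratio of scaled counts within counting error of 1. The gene (ENSMUSG00000060147, chromosome 13, 33917918 to 34002794, minus strand) had 5886 counts in the IL-36 gamma library and 6037 in the control library. The ratio was 1.02 (0.987 to 1.06), the narrowest interval of the set. On the TPM scale it stood slightly lower with IL-36 gamma, at 166.9 to 175.6 TPM against 176.3 to 185.4 TPM in the control, so its direction turned on the scale. Of its 5409 exonic bases, 1587 are shared with genes on the opposite strand, namely Nqo2 (762 bases), 1110046J04Rik (584) and Ripk1 (241). For which gene reads over these bases were counted, if for any, is not known, since the strand setting was not stated. Reads called ambiguous, 1.84% with IL-36 gamma and 1.79% in the control, were kept apart from the gene counts. Nqo2, 1110046J04Rik and Ripk1 had ratios of 1.05 (0.931 to 1.18), 1.03 (0.944 to 1.13) and 0.939 (0.871 to 1.01).

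Serpinb6b is the close copy of Serpinb6a, 85.6% identical over 1170 aligned columns, and in mouse its product inhibits granzyme A. The gene (ENSMUSG00000042842, chromosome 13, 32965209 to 32979067, plus strand) had 121 counts in the IL-36 gamma library and 133 in the control library, a ratio of 0.955 (0.740 to 1.23). By TPM it stood at 8.42 with IL-36 gamma and 9.52 in the control, far below Serpinb6a. The libraries overlapped within counting error.

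Serpinb9 encodes Spi6, the inhibitor that protects cells from granzyme B. The gene (ENSMUSG00000045827, chromosome 13, 33003250 to 33017957, plus strand) had 461 counts in the IL-36 gamma library and 479 in the control library, and the libraries overlapped within counting error. The ratio was 1.01 (0.887 to 1.15). Its copy Serpinb9b had 46 counts with IL-36 gamma and 42 in the control, and the other 5 genes of the Serpinb9 group had none. Gzmb itself had 0 counts in both libraries, which allows up to 0.177 CPM with IL-36 gamma and 0.169 CPM in the control, the levels of 3 counts. Of 7 markers of natural killer cells none was measured, and their sum was 0.354 CPM with IL-36 gamma and 0.169 CPM in the control. Of 8 T cell markers 2 were measured, with a list sum of 13.6 CPM with IL-36 gamma and 19.0 CPM in the control. These were Cd4, with 128 counts with IL-36 gamma and 232 in the control, a ratio of 0.579 (0.463 to 0.722), and Cd28, with 99 counts with IL-36 gamma and 98 in the control. Among the T cell markers that were not measured, Cd3e, Cd3g and Cd8a were at 0 in both libraries. Cd3d had 0 counts with IL-36 gamma and 2 in the control, Trac 0 and 1, and Lck 3 and 4.

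Serpinb8, whose human counterpart inhibits furin, was the gene of the set with an interval below 1. The gene (ENSMUSG00000026315, chromosome 1, 107590006 to 107610484, plus strand) had 333 counts in the IL-36 gamma library, against 416 in the control library. The ratio was 0.840 (0.725 to 0.973), and at a 99% interval it was no longer apart from 1 (0.693 to 1.02). Furin had 2801 counts with IL-36 gamma and 3055 in the control, a ratio of 0.962 (0.914 to 1.01).

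Serping1, the C1 inhibitor that blocks the complement proteases C1r and C1s and plasma kallikrein, was near the lower limit of measurement. The gene (ENSMUSG00000023224, chromosome 2, 84765387 to 84775444, minus strand) had 15 counts in the IL-36 gamma library and 10 in the control library. The counting intervals, 8.40 to 24.7 counts with IL-36 gamma and 4.80 to 18.4 in the control, overlapped, and the ratio of 1.57 had an interval from 0.662 to 3.92. No 50-base window of its transcripts occurs in another gene. Its target gene C1ra had 158 counts with IL-36 gamma and 127 in the control, a ratio of 1.31 (1.03 to 1.66) that was no longer apart from 1 with scaling by total counts. C1s1 had 17 counts with IL-36 gamma and 14 in the control, a ratio of 1.27 (0.591 to 2.79). Of 6 classical complement components 4 were above 1 and 1 below, beside 20.2% and 16.5% of all measured genes. After a trend on exon length was removed, 2 were above and 2 below. C4b had a ratio of 1.52 (1.15 to 2.02), C3 1.08 (1.05 to 1.12) and C1qb 1.06 (1.04 to 1.08), and C1qa was the gene below 1, at 0.975 (0.954 to 0.997).

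**Figure D3:**
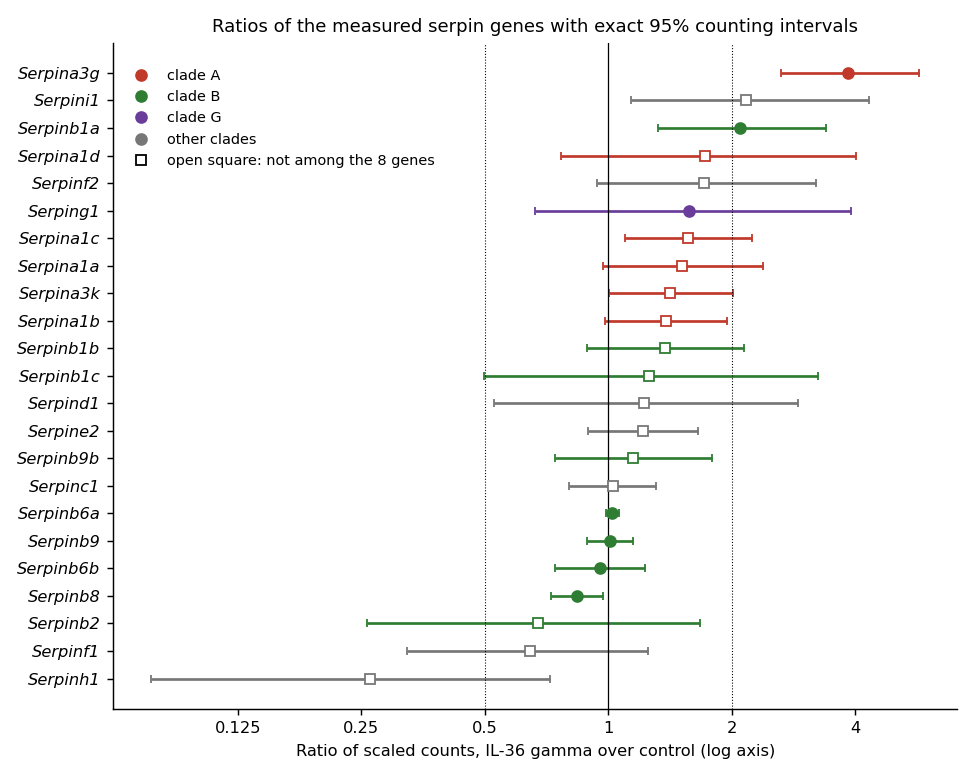
Ratio of scaled counts, IL-36 gamma over control on a log axis, for 23 of the 24 measured serpin genes, with exact 95% counting intervals. Filled circles are genes of the set and open squares other serpins. Serpina3g at 3.85 is the one serpin whose interval lies beyond the dotted line at 2, and Serpinb6a has the narrowest interval.

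Of 61 protein-coding serpin genes 38 had a count and 24 were measured, of which 5 had an interval above 1, 2 below it and 17 neither, beside 20.2% above and 16.5% below over all measured genes. The family's median log2 ratio was 0.28, against 0.01 over all measured genes, and 0.04 over the serpins with a mean count of at least 50. In clade A 3 of 6 measured genes were above 1, or 2 under each of the other scalings, and 0 below, with a median of 0.60. In clade B 1 of 9 was above and 1 below, with a median of 0.03, or -0.02 with scaling by total counts. At a 99% interval 0 serpins outside the set were above 1. Summed by group, the Serpinb6 genes had a ratio of 1.02 (0.986 to 1.06), the Serpinb9 genes 1.02 (0.902 to 1.16), the Serpinb1 genes 1.63 (1.21 to 2.19) and the Serpina3 genes 2.20 (1.74 to 2.79). Serpinb1a held 58 of 121 counts of the Serpinb1 group with IL-36 gamma and 29 of 78 in the control. The intervals of Serpinb1b and Serpinb1c included 1. Most counts of the Serpina3 group with IL-36 gamma were those of Serpina3g, and without it the group had a ratio of 1.37 (0.997 to 1.89).

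Serpins outside clades A, B and G lay on both sides of a ratio of 1. Serpine2, which encodes protease nexin, had 95 counts with IL-36 gamma and 82 in the control, a ratio of 1.22 (0.895 to 1.65). Serpinf2, the antiplasmin gene, had 31 counts with IL-36 gamma and 19 in the control, a ratio of 1.71 (0.937 to 3.21). The antithrombin gene Serpinc1 had 136 counts with IL-36 gamma and 139 in the control, a ratio of 1.03 (0.805 to 1.31). Of its 8546 exonic bases, 2942 overlap Zbtb37 on the opposite strand, and for which gene reads there were counted, if for any, is not known. Named after their values were seen, Serpini1, the neuroserpin gene, had 31 counts with IL-36 gamma and 15 in the control, a ratio of 2.17 (1.14 to 4.32). Serpinh1, which encodes a collagen chaperone, had 5 counts with IL-36 gamma and 20 in the control, a ratio of 0.262 (0.0770 to 0.721). The collagen genes Col1a1, Col1a2 and Col3a1 of the stromal markers were lower in the same library, at ratios of 0.686, 0.367 and 0.442, and the part of stromal cells in the Serpinh1 ratio was not tested. Over all 9 stromal markers, 3 were below 1 and 1 above of 6 measured, beside 16.5% and 20.2% of all measured genes. Pdgfra and Lum were at 0 in both libraries. The sum was 44.6 CPM with IL-36 gamma and 42.3 CPM in the control. It rested mostly on the gene above 1, Pecam1, which held 617 of 756 counts with IL-36 gamma and 509 of 751 in the control.

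**Figure D4:**
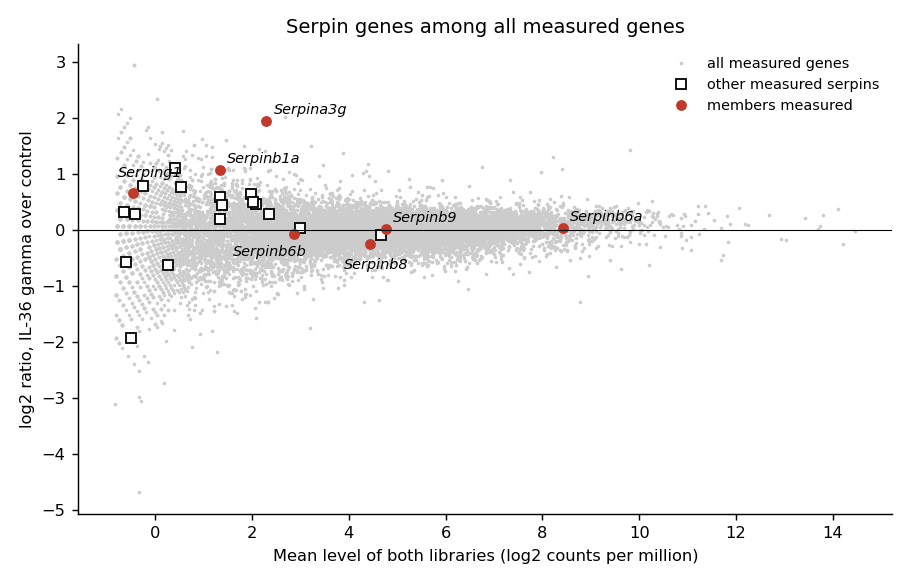
Each measured gene with a count in both libraries as a grey point, by its mean level (log2 CPM) and its log2 ratio of IL-36 gamma over control, with the measured genes of the set as red circles and other serpins as open squares. Serpina3g, at a ratio of 3.85, lies above most genes of its level, and Serpinb6a, Serpinb9 and Serpinb6b lie near 0.

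Lysosomal cysteine proteases, the class on which Serpina3g acts, were for the most part abundant in both libraries and slightly higher with IL-36 gamma. Of 10 lysosomal cysteine proteases, 7 had an interval above 1 and 0 below it, beside 20.2% and 16.5% of all measured genes. Their median log2 ratio was 0.16, against 0.01 over all measured genes. At counts as high as most of these, an interval can leave 1 at a ratio as small as the 1.06 of Ctsb. Ctsz had 22127 counts with IL-36 gamma and 18389 in the control, a ratio of 1.26 (1.24 to 1.29). For Ctss, whose product trims the class II invariant chain, the ratio was 1.22 (1.20 to 1.24), and for Ctsh, a cathepsin with aminopeptidase activity, it was 1.19 (1.15 to 1.23). Ctsb and Ctsl, whose products Spi2A inhibits, had ratios of 1.06 (1.05 to 1.06) and 1.01 (0.999 to 1.03). With scaling by total counts 2 of the 10 were below 1.

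Caspases and the proteases of fibrinolysis held genes on both sides. Of 8 measured caspases 3 were above 1 and 1 below, beside 20.2% and 16.5% of all measured genes, with a median of 0.06. Casp1 (ratio 1.28, 1.19 to 1.39), Casp4 (1.18, 1.04 to 1.33) and Casp2 (0.820, 0.697 to 0.964) led them. Of 8 measured genes of plasminogen activation, coagulation and furin-type cleavage, 1 was above 1 and 2 below, or 4 below with scaling by total counts, and the median was -0.03. The urokinase gene Plau had 2682 counts with IL-36 gamma and 4728 in the control, a ratio of 0.595 (0.568 to 0.624). The coagulation factor genes F10 and F7 had ratios of 1.34 (1.13 to 1.59) and 0.736 (0.608 to 0.891).

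Protease inhibitors outside the serpin family were split as well. Of 16 measured, 5 were above 1, or 2 with scaling by total counts, and 4 were below, with a median of -0.02. Over all measured genes 20.2% were above 1 and 16.5% below. Wfdc17, a small secreted inhibitor-like protein of activated macrophages, had 2635 counts with IL-36 gamma and 1990 in the control, a ratio of 1.39 (1.31 to 1.47). The cystatin gene Cstb, an inhibitor of lysosomal cathepsins, had a ratio of 1.21 (1.17 to 1.26) and the metalloprotease inhibitor gene Timp2 0.796 (0.758 to 0.837).

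Other NF-kB target genes were set beside Serpina3g. Of 15 NF-kB target genes 8 were above 1 and 3 below, beside 20.2% and 16.5% of all measured genes, with a median of 0.15. With scaling by total counts 6 were above and 5 below. Bcl3 had a ratio of 1.35 (1.26 to 1.44), Ccl5 1.65 (1.18 to 2.33) and the feedback gene Tnfaip3 0.820 (0.765 to 0.880). No gene of the list was past 2-fold with its whole interval. The part of the pathway in the ratio of Serpina3g was not tested.

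**Figure D5:**
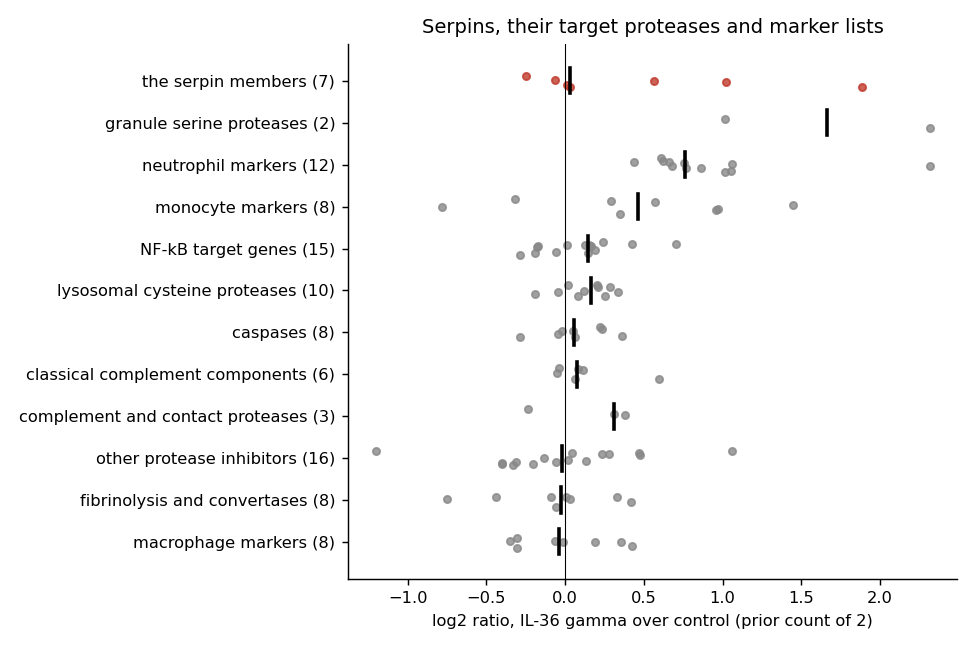
Log2 ratio of IL-36 gamma over control (with a prior count of 2) for each measured gene of the set (red) and of the lists of proteases, inhibitors, pathways and cell markers (grey), with the number of measured genes in parentheses and the median as a black bar. Serpina3g is the red point farthest right, at 1.89, and the measured neutrophil markers all lie above 0, with a median of 0.76.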

How the data were processed

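The authors deposited raw counts per Ensembl gene. The submitters' processing notes name mm10, HTSeq, the aligner STAR (2.5.0a), Trim Galore (0.6.1) and FastQC (0.11.8). How HTSeq was set, for strand or otherwise, and which annotation it used were not stated. Reads that the counter placed in no gene (46.3% with IL-36 gamma, 47.2% in the control) stayed out of library sizes. GENCODE M21 gave symbols and exon lengths and held 54409 of 54446 gene IDs.

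Counts were scaled with TMM factors (edgeR 4.0.16, R 4.3.3). No edgeR test was run, since 1 library per group leaves nothing to estimate spread from. Ratios, intervals, list medians and log2 differences from Serpina3g were computed in Python 3.11.15 with scipy 1.17.1. The medians and differences used a prior count of 2. Ratios, their intervals and the 2-fold rule, but not the medians, were tried on simulated Poisson counts. The intervals assume such counts, so the trial checks the computation only. Reads are not independent molecules, so intervals cover counting error only. Promoters came from RefSeq on GRCm38.p6.

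The members, gene lists and rules were chosen with earlier results of these data known. Named genes are the 8 members, the 10 most counted other serpins, and up to 3 genes of each list past 2-fold or otherwise with the interval bound nearest 1 lying farthest from it. Members of lists named beyond this rule (Prtn3, Ctsg, granzymes, Furin, C1s1, Ctsb, Ctsl and collagens) were chosen for their link to a serpin. C1qa, F13a1, Pecam1, Pdgfra, Lum, the T cell markers and the neutrophil markers other than Elane and Prtn3 were named after their values were seen. One of the 10 serpins and 1 gene list are not reported here. Protein sequences were not used here.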

Additional observations from a re-analysis of the deposited data

How the results depend on the processing

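The ratio of Serpina3g ran from 3.57 to 3.85 over all alternatives and stayed past 2-fold, and that of Serpinb1a ran from 1.96 to 2.10 with its interval above 1 wherever it was measured. Serpinb6a had a ratio of 0.984 with total counts in place of TMM and of 1.04, with an interval above 1, after a lowess trend on exon length was removed. With a mean count of at least 50, Serpinb1a was not measured and 1 member had an interval above 1. With 99% intervals 0 members had one below 1, since Serpinb8 lost its place. Over all genes, those past 2-fold upward numbered 7 with 99% intervals, 50 with a 1.5-fold bound and 7 without genes overlapped on the opposite strand, an alternative chosen after seeing the data, against 11. Downward they numbered 21 with no count filter, 5 with a mean count of at least 50, 5 with 99% intervals, 76 with a 1.5-fold bound and 8 without overlapped genes, against 13. Without overlapped genes 1923 genes lay above 1 and 1497 below, against 2907 and 2375, as fewer genes were tested. The members' median log2 ratio ran from -0.02 with total counts to 0.30 with no count filter. Of the counts of genes above or below 1 in the other lists and clades, 28 moved by more than 1.5 times and 212 did not. No called ratio of a member reversed. No paired analysis was possible because each group has 1 library. Depth limits Serpina3f and Serping1, whose intervals span more than 5-fold.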
